A study of Mus musculus with 9 samples.

Results

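The genes described here are 40 glycolytic and hypoxia-inducible genes, out of 24062 gene symbols in the deposited count table of a study of mouse embryonic fibroblasts. They are the enzymes and transporters that carry glucose to lactate, the transcription factor subunits that respond to low oxygen, and genes that this factor is known to induce. The set was chosen because 4 of its members, Ndufa4l2, Ndrg1, Slc2a1 and Ddit4, were lower with p21 than with p16, so the difference between p21 and p16 is given as a description, without a test. All 40 members are in the table, and all 40 passed the filter on low counts that left 14223 genes to test.

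RNA-seq was made from fibroblasts of C57BL/6 embryos, primary connective tissue cells in culture, 4 days after a lentivirus had been added. The control group received a control virus (EV in its labels), the p21 group one that overexpresses p21 and the p16 group one that overexpresses p16. p21 (Cdkn1a) and p16 (Cdkn2a) are inhibitors of cyclin-dependent kinases, and non-senescent is the status given for every sample. There were 3 libraries per group, numbered 1 to 3. The labels do not say whether these were separate cultures or embryos, so p-values measure the spread between the samples, which may be technical. The treatment text of every sample names only p21, and the p16 group is known from its own label.

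Hypoxia-inducible factor (HIF) is a transcription factor whose alpha subunits, encoded by Hif1a and Epas1, are hydroxylated by oxygen-dependent prolyl hydroxylases and then degraded. When oxygen falls the subunits persist, pair with a constitutive partner and bind the core motif ACGTG or GCGTG near glucose transporters, glycolytic enzymes, lactate exporters and regulators of mitochondria. Much of this control acts on the protein, so the transcript of Hif1a need not follow the activity of the factor. Fibroblasts in culture run glycolysis at a high rate even in air.

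The libraries held 44455730 to 63152239 counted reads. Cdkn1a stood at 350 to 375 CPM (counts per gene scaled to a common library size, with TMM factors) in the control libraries and at 1429 to 1773 CPM in the p21 libraries, and Cdkn2a at 34.7 to 42.2 CPM in the control libraries and at 1576 to 1927 CPM in the p16 libraries, so both targeted genes matched the labels. Libraries of replicate 3 stood apart in every group. They carried Xist, the transcript of the inactive X chromosome, at 181 to 251 CPM, against 6.96 CPM in p21 replicate 1 and at most 0.34 CPM in the other libraries. Cells with an inactive X were thus present in replicate 3 and scarce or absent in the others. Replicate 3 was therefore not a technical repeat of replicates 1 or 2. All 12 fibroblast markers were detected, with a summed level of 41523 to 47078 CPM in the control, 51489 to 52781 CPM in the p21 and 48466 to 52692 CPM in the p16 libraries, although Lum was at most 1.002 CPM and Dcn at most 4.12 CPM. Among them Fn1, Fbln2, Col1a1, Thy1 and Vim were higher with p21, while Col3a1 and Pdgfra were lower (log2 -0.32 ± 0.072 and -0.99 ± 0.181, adjusted p = 0.00338 and 0.000916). The Col1a1 call was lost without control replicate 1, control replicate 2, p21 replicate 2 or p21 replicate 3, and the Vim call without control replicate 3. In these bulk samples, fewer cells of a type and less RNA per cell cannot be told apart.

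Promoter sequences are shown for some members whose values the results turn on, each with a match. ACGTG and GCGTG are the letters that HIF is known to recognise. Of the 40 members, 35 have a promoter in the RefSeq table (GRCm38.p6). Epas1, Slc2a3, Bnip3l, Ndufa4l2 and Ndrg1 have none there. The stretches below lie within 250 bases upstream of a transcript start and outside annotated exons, run 5′ to 3′ on the strand of the gene, and show matches of either motif on either strand in capitals with up to 20 bases beside them (CACGT and CACGC are the motifs on the opposite strand, and CACGTG holds ACGTG on both strands).
Slc2a1, chr4:119108664-119108708, plus strand: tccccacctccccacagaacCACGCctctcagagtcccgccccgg
Ddit4, chr10:59951861-59951977, minus strand: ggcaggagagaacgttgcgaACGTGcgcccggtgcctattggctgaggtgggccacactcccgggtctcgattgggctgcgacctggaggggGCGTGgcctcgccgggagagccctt
Slc16a1, chr3:104638444-104638554, plus strand: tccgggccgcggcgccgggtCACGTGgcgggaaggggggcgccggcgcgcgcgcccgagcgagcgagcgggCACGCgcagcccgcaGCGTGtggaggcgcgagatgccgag
Slc16a3, chr11:120949020-120949052, plus strand: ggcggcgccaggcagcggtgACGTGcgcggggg
Ldha, chr7:46845639-46845794, plus strand: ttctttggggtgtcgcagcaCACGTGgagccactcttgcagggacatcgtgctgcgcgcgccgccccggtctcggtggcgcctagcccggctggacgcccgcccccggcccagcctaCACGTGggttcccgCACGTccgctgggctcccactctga
Egln3, chr12:54204079-54204123, minus strand: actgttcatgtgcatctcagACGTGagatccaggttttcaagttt
Pdk1, chr2:71873126-71873170, plus strand: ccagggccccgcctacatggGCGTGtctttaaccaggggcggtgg
Hk2, chr6:82774482-82774700, minus strand: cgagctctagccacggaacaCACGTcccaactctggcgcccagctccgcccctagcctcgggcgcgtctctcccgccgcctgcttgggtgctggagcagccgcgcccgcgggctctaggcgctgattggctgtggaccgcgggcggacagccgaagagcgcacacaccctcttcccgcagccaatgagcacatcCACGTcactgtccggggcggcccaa
P4ha1, chr10:59323113-59323295, plus strand: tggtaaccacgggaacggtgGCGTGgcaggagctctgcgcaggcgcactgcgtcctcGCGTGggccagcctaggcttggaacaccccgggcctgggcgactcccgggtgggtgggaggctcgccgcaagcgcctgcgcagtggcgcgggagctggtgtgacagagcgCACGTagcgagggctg
Slc2a1 and Ddit4 are members whose values chose the set. Slc16a1, Slc16a3, Ldha, Egln3 and Pdk1 were lower with p21 than in the control group, and Hk2 and P4ha1 were higher. Among members not shown, Tpi1, lower with p21, had neither motif in its 250 upstream bases. Hk1, higher with p21, had GCGTG there but not ACGTG. Ldha carries ACGTG at 3 places on its stretch and Egln3 a single one, while the stretches of Slc2a1 and Pdk1 show only GCGTG. Slc2a1 also has ACGTG 36 bases before its start, and Slc16a3 has a further ACGTG 14 bases before its start. Those matches reach into annotated exons, so they are counted below but not shown. Over the 250 upstream bases, ACGTG on either strand occurred in 24 of the 52 windows of the members (46.2%), against 21.2% of the windows of all tested genes and 16.6% of all windows in the table. GCGTG occurred in 53.8% of the members' windows, against 43.4% for tested genes. Counted by gene, ACGTG occurred in 57.1% of the 35 members with a promoter, against 24.8% of tested genes. The members were listed in part as known HIF targets, so this excess is not a result of these data. Of the members lower with p21, 6 of 8 genes with a promoter had ACGTG (75.0%), and of those higher with p21, 4 of 6 (66.7%). Genes of both directions therefore held the motif. A match of these letters is not a measured site, and no binding was measured here.

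Counted per exon length, the members spanned a wide range of abundance. In the control group Gapdh, Ldha, Pgk1, Pkm and Pgam1 were the 5 most abundant members with a length, at 746 ± 18.6, 687 ± 20.4, 671 ± 20.6, 659 ± 5.49 and 536 ± 9.36 RPKM (CPM per kilobase of exon, SD, n = 3). Ldha, Pgk1 and Pkm followed each other in steps smaller than the SD of Ldha or Pgk1, whereas Tpi1 followed at 295 ± 7.58 RPKM and P4ha1, a collagen prolyl hydroxylase, at 109 ± 3.50 RPKM. The glucose transporter Slc2a1 stood at 62.5 ± 0.811 RPKM. Ndufa4l2, with 10.4 ± 2.98 RPKM, and Ndrg1, with 4.25 ± 0.447 RPKM, which fell furthest with p21, were ranked 25 and 31 of 39. Aldoa has 2 entries in the annotation and therefore no length here.

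**Figure D1:**
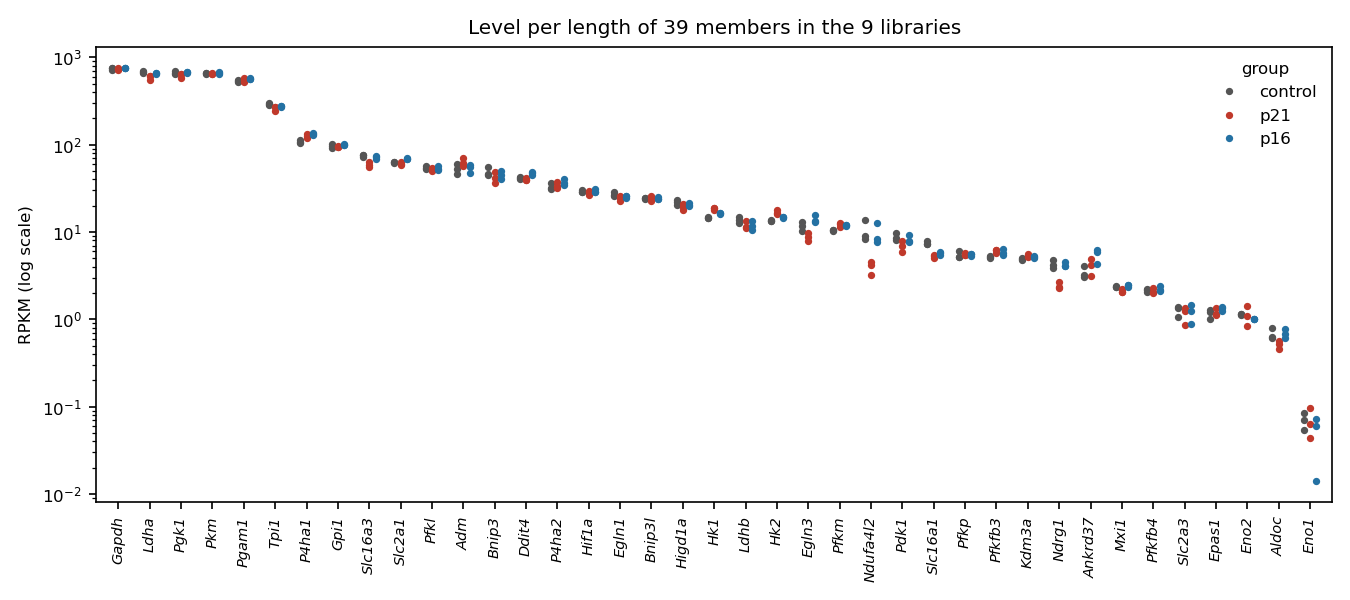
Level per exon length (RPKM, log scale) of 39 members in each of the 9 libraries, ordered by the control mean, with control in grey, p21 in red and p16 in blue. Most members keep their place in all 3 groups, and the p21 points of Ndufa4l2 and Ndrg1 lie below those of the control and p16 groups.

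Some rows share sequence with other genes, and the annotation and multi-mapping rule of the counting are not given in the sources used here. Of all 50-base windows in the transcripts of Pgk1, 68.0% also occur in another gene, and the share was 58.4% for Gapdh, 41.5% for Pgam1, 24.4% for Bnip3l, 23.7% for Pkm, 20.99% for Ldhb, 20.7% for Bnip3, 18.6% for Gpi1 and 10.4% for Ldha. Values of these genes are uncertain to that extent. The row of Eno1, the main enolase of most tissues, held 0.372 ± 0.080 CPM in the control group, and its near-identical copy Eno1b held 29.5 ± 3.06 CPM. No change of Eno1 is reported here for that reason. For Ndufa4l2, Slc2a1 and Ddit4 the share was 0.

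With p21, 16 of the 40 members passed the test against the control group (edgeR quasi-likelihood F test, adjusted p under 0.05 over all tested genes): 10 were lower and 6 higher. Of all tested genes 39.9% passed, so the members' 40% was at the background. With the replicate number as a block, 22 members (55%) were called, 15 of them lower (37.5%) and 7 higher (17.5%), against 48.2%, 24.2% and 24.0% of all genes. The members' 25% lower stood beside 20.1% of all genes, and their 15% higher beside 19.8%. The median log2 fold change of the members was -0.04, and that of all tested genes 0.00. The members that fell include the largest falls of the set, Ndufa4l2 and Ndrg1, and the lactate transporters. Those that rose include both hexokinases and P4ha1. With p16, 7 of 40 passed, 6 higher and 1 lower, which is 17.5% against 11.4% of all genes: 15% were higher against 5.80%, and 2.5% lower against 5.56%, with a median of 0.02. Slc2a1 and Ddit4, which chose the set through their p16 and p21 values, are among the 6. Of the 36 members other than the 4 that chose the set, 5 (13.9%) were called with p16, 4 of them higher (11.1%), and 14 (38.9%) with p21. With the block 14 members (35%) were called with p16, 11 higher (27.5%) and 3 lower (7.5%), against 21.4%, 11.3% and 10.1% of all genes. Both comparisons use the same control libraries and are not independent of each other. The p21 and p16 libraries both entered the difference that chose the set, so neither comparison is independent of that choice.

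**Figure D2:**
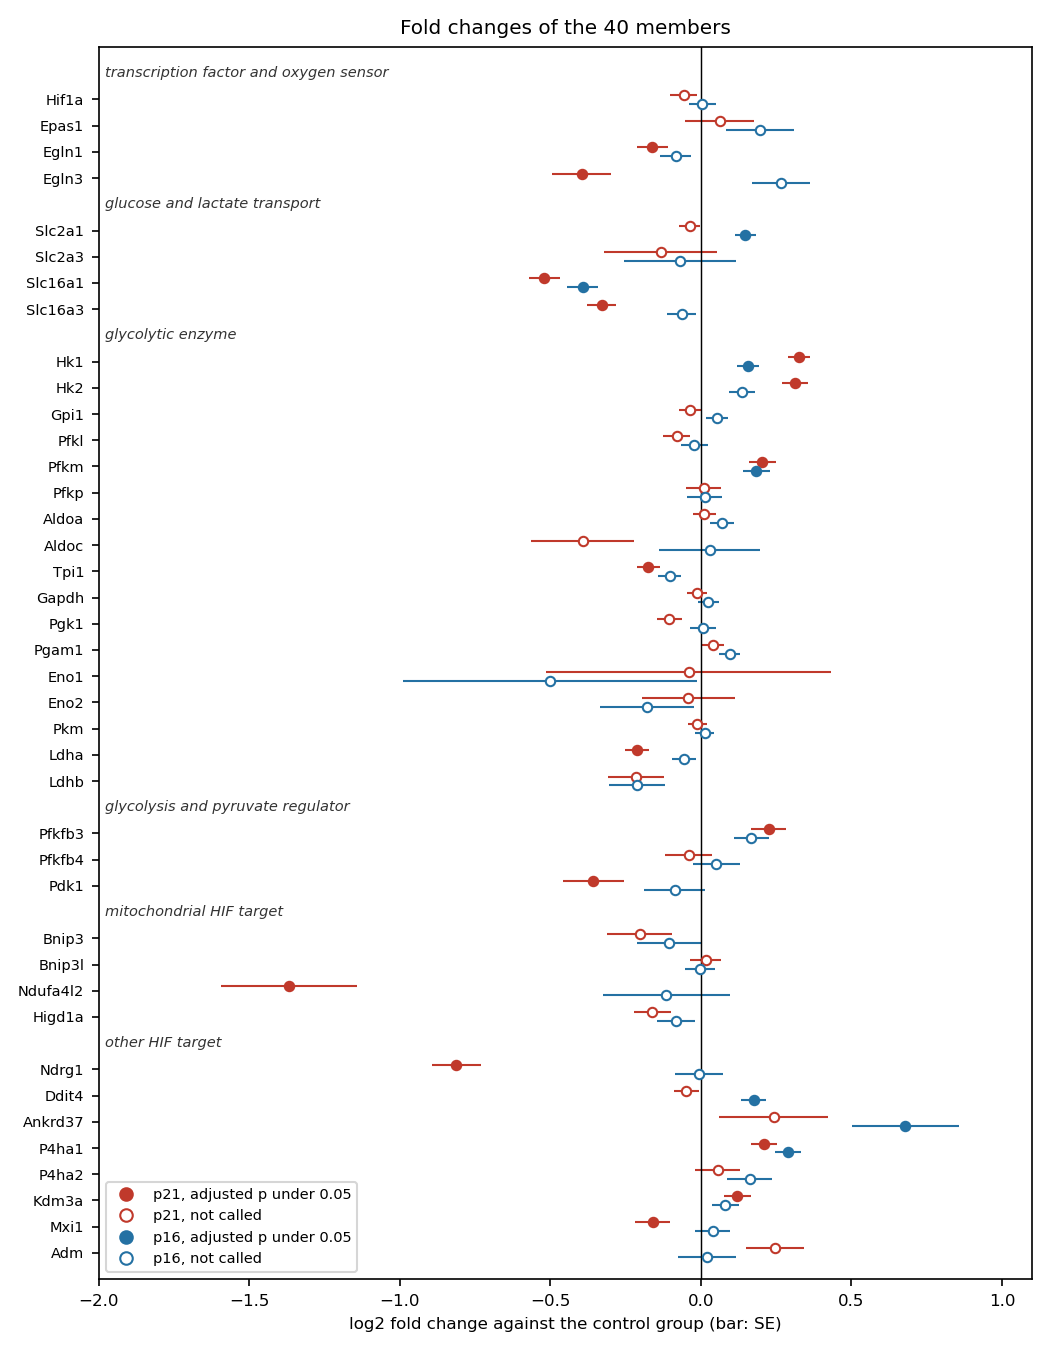
Log2 fold change of each of the 40 members against the control group (bar: SE from the fit over 9 libraries), with p21 in red and p16 in blue, filled where the adjusted p was under 0.05. Ndufa4l2 and Ndrg1 lie furthest to the left with p21, at -1.37 and -0.81, and Ankrd37 furthest to the right with p16, at 0.68. The wide bars of Eno1 belong to a nearly empty row.

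The 4 members that chose the set fell into 2 patterns when set against the control group. The p21 and p16 libraries also entered that choice, so the p-values of these 4 genes are not independent of it. Ndufa4l2 (chr10:127514967-127517154 in GRCm38, plus strand, the whole gene as in all positions of genes given here) encodes a mitochondrial protein that HIF is known to induce and that takes the place of a subunit of the respiratory chain. It stood at 9.06, 9.88 and 15.1 CPM in control libraries 1 to 3, at 4.92, 3.54 and 4.60 CPM with p21 and at 8.41, 9.02 and 13.96 CPM with p16. All p21 libraries lay below all others, while the control and p16 libraries overlapped. Its level was 2.61-fold lower with p21 than in the control group (log2 -1.37 ± 0.225 SE, adjusted p = 0.000439 by edgeR), and with p16 the log2 difference was -0.12 ± 0.211 (adjusted p = 0.787).

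Ndrg1 (chr15:66929318-66969640, minus strand), a hypoxia- and stress-inducible gene linked to growth arrest and differentiation, followed the same pattern. Its values were 27.4, 25.5 and 31.2 CPM in the control libraries, 15.4, 14.9 and 17.5 CPM with p21 and 27.0, 26.8 and 29.9 CPM with p16. The p21 libraries lay below every control and p16 library. The log2 fold change was -0.81 ± 0.082 with p21 (1.76-fold lower, adjusted p = 9.85e-06 by edgeR) and -0.01 ± 0.079 with p16 (adjusted p = 0.977). Of the exon bases of Ndrg1, 8.4% overlap a gene on the opposite strand, and the library kit does not mark strand. Both falls held without any single library.

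The other pattern was a level near that of the control group with p21 and a higher one with p16. Slc2a1 (chr4:119108711-119137983, plus strand) encodes GLUT1, the basal glucose transporter. It stood at 220, 216 and 222 CPM in the control libraries, 225, 209 and 208 CPM with p21 and 246, 239 and 243 CPM with p16. Control and p21 libraries overlapped, and the p16 libraries lay above all others. The log2 fold change was -0.04 ± 0.035 with p21 (adjusted p = 0.440) and 0.15 ± 0.035 with p16 (1.11-fold higher, adjusted p = 0.0184 by edgeR).

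Ddit4 (chr10:59949669-59951834, minus strand), also called REDD1, is a stress-induced inhibitor of mTORC1. Its values were 71.6, 73.2 and 74.7 CPM in the control libraries, 72.7, 69.9 and 69.7 CPM with p21 and 83.5, 85.1 and 79.3 CPM with p16. The p16 libraries again lay above all others. Its log2 fold change was -0.05 ± 0.042 with p21 (adjusted p = 0.388) and 0.18 ± 0.042 with p16 (1.13-fold higher, adjusted p = 0.0188 by edgeR). The p16 calls of both genes rest on few libraries. Slc2a1 lost its call when control replicate 1, control replicate 2 or any p16 library was left out (adjusted p up to 0.0878). Ddit4 lost it when replicate 1 or 2 of either group was left out (up to 0.0893).

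Between p21 and p16 directly, the log2 difference was -1.25 for Ndufa4l2, -0.81 for Ndrg1, -0.22 for Ddit4 and -0.18 for Slc2a1. These are the values the set was chosen by. Of the 40 members, 31 were lower with p21 than with p16 by estimate, and the median difference was -0.08, while 50.5% of all tested genes were lower, with a median of -0.0019. Over the 36 members that did not choose the set, 27 were lower and the median was -0.07. These 36 were also listed with earlier results of these data known, so the count is a description only. Egln3 had the third largest difference, -0.66, and no test of it is reported.

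**Figure D3:**
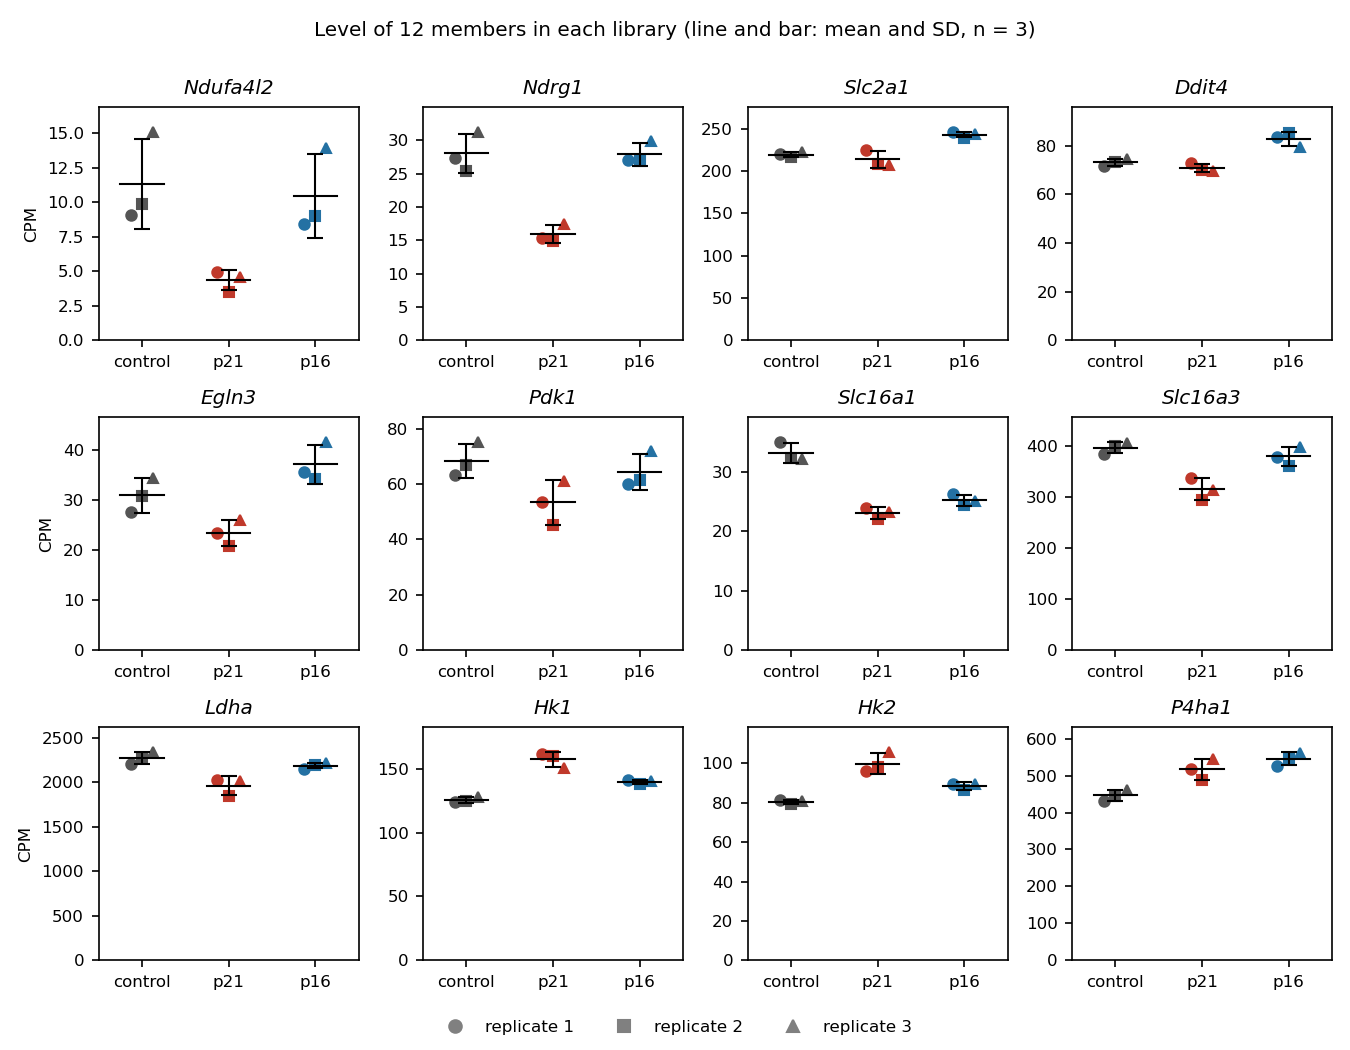
Level (CPM, axis from 0) of 12 members in each library, with the mean as a line and the SD as a bar (n = 3), and the replicate number as the marker shape. Ndufa4l2, Ndrg1 and Slc16a3 are lowest with p21, Slc2a1 and Ddit4 highest with p16, Slc16a1 is low with both, and Hk1 and Hk2 are highest with p21.

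Neither HIF alpha transcript passed the test. Hif1a stood at 171, 170 and 178 CPM in the control libraries, 167, 156 and 175 CPM with p21 and 169, 170 and 181 CPM with p16. The 3 groups overlapped, and the log2 fold changes were -0.06 ± 0.044 (adjusted p = 0.335) and 0.00 ± 0.044 (adjusted p = 0.962). Epas1, the relative best known from endothelium, stood at 7.11, 5.56 and 6.75 CPM in the control libraries, 6.25, 6.42 and 7.60 CPM with p21 and 7.62, 6.92 and 7.70 CPM with p16. These also overlapped (log2 0.06 ± 0.114, adjusted p = 0.696, and 0.20 ± 0.113, adjusted p = 0.304). Per length, Hif1a made up 96.2% ± 0.439 of both transcripts in the control group.

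The prolyl hydroxylases mark HIF for degradation and are themselves HIF targets. Egln3 (chr12:54178981-54203860, minus strand) stood at 27.5, 30.8 and 34.4 CPM in the control libraries, 23.5, 20.8 and 26.1 CPM with p21 and 35.6, 34.3 and 41.6 CPM with p16. All p21 libraries were below the control libraries, and its log2 fold change was -0.40 ± 0.098 (adjusted p = 0.00664 by edgeR). With p16 it was 0.27 ± 0.096, where p16 replicate 2 lay just under control replicate 3 (adjusted p = 0.0983, and 0.00107 with the replicate number as a block). Egln1, the main oxygen sensor in most cells, stood at 93.8, 96.2 and 102 CPM in the control libraries, 88.5, 80.9 and 91.7 CPM with p21 and 88.9, 92.8 and 94.1 CPM with p16. It was lower with p21 (log2 -0.16 ± 0.052, adjusted p = 0.0247) but lost this call without control replicate 3 or p21 replicate 2 (adjusted p up to 0.0895). Of the per-length sum of both hydroxylases, Egln3 made up 29.9% ± 1.43 in the control group, 26.6% ± 1.04 with p21 and 35.3% ± 2.05 with p16, and these ranges did not overlap.

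The monocarboxylate transporters, which move lactate and pyruvate across the plasma membrane, were lower with p21. Slc16a1 (MCT1, chr3:104638668-104658462, plus strand) stood at 35.0, 32.3 and 32.0 CPM in the control libraries, 23.9, 22.0 and 23.2 CPM with p21 and 26.2, 24.3 and 25.1 CPM with p16. Every p21 and p16 library lay below every control library. Its fall was 1.44-fold with p21 (log2 -0.52 ± 0.052, adjusted p = 9.57e-06) and log2 -0.39 ± 0.052 with p16 (adjusted p = 0.00082, edgeR), and it was the only member that fell with p16 in this fit.

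Slc16a3 (MCT4, chr11:120948480-120960868, plus strand), the exporter that HIF is known to induce, stood at 385, 401 and 406 CPM in the control libraries, 338, 295 and 315 CPM with p21 and 380, 362 and 399 CPM with p16. The p21 libraries lay below all others, and the p16 and control libraries overlapped. The log2 fold change was -0.33 ± 0.049 with p21 (adjusted p = 0.000197) and -0.06 ± 0.049 with p16 (adjusted p = 0.453). Slc16a3 was the larger share of the pair per length, 90.9% ± 0.634 in the control group. Slc2a3, the neuronal-type glucose transporter, was a minor transcript here, at 1.97% ± 0.285 of the per-length sum with Slc2a1 in the control group, and did not pass in either comparison.

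Among the 17 glycolytic enzymes, 3 rose (17.6%, against 19.8% of all genes) and 2 fell (11.8%, against 20.1%) with p21. The hexokinases, which trap glucose as its phosphate, both rose. Hk1 (chr10:62268855-62379908, minus strand) stood at 124, 125 and 128 CPM in the control libraries, 161, 160 and 151 CPM with p21 and 141, 138 and 140 CPM with p16. The 3 groups did not overlap, with log2 fold changes of 0.33 ± 0.035 with p21 (adjusted p = 1.69e-05) and 0.16 ± 0.035 with p16 (adjusted p = 0.0144). Hk2 (chr6:82725025-82774454, minus strand), the HIF-inducible isoform, stood at 81.5, 79.2 and 80.7 CPM in the control libraries, 95.8, 97.97 and 106 CPM with p21 and 89.5, 86.2 and 89.4 CPM with p16. Its order was the same, and the rise passed with p21 (log2 0.31 ± 0.043, adjusted p = 0.000121) and missed with p16 (0.14 ± 0.043, adjusted p = 0.0630, and 0.0137 with the replicate block). Each hexokinase kept close to its share of the per-length sum, Hk1 at 52.2% ± 0.546 in the control group and 52.4% ± 2.203 with p21.

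Pfkm, the muscle-type phosphofructokinase, rose with p21 (log2 0.20 ± 0.045, adjusted p = 0.00313) and with p16 (0.18 ± 0.045, adjusted p = 0.0206), while its relatives Pfkl and Pfkp did not pass in either. Its share of the family per length went from 14.9% ± 0.402 in the control group to 17.4% ± 0.351 with p21 and 16.7% ± 0.447 with p16, with Pfkl the main form at 77.4% ± 0.162 in the control group. Markers of muscle moved the same way. Together they came to 218 to 227 CPM in the control group, 589 to 676 CPM under p21 and 328 to 347 CPM under p16, nearly all of it Des and Acta1. Only 3 of the 8 listed markers passed the filter, Ckm was 0 in every library, and Myod1, Myog and Myf5 were at most 0.10, 0.04 and 0.04 CPM. The part of these cells' muscle genes in the Pfkm result was not tested.

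At the other end of the pathway, Ldha (chr7:46841475-46855627, plus strand) makes lactate from pyruvate. It stood at 2204, 2274 and 2339 CPM in the control libraries, 2029, 1845 and 2017 CPM with p21 and 2153, 2189 and 2211 CPM with p16. The p21 libraries lay below all others, and the control and p16 libraries overlapped. The fall with p21 was 13.6% (log2 -0.21 ± 0.040, adjusted p = 0.00118 by edgeR), and the log2 value with p16 was -0.06 ± 0.040 (adjusted p = 0.405). Tpi1, triosephosphate isomerase, fell with p21 by 0.18 ± 0.038 on the log2 scale (adjusted p = 0.00299). Gapdh, Pkm, Aldoa, Gpi1, Pgam1, Pfkl, Pfkp, Aldoc, Pgk1, Eno2 and Ldhb did not pass with p21. Of the enzymes only Hk1 and Pfkm passed with p16, both higher (11.8%, against 5.80% of all genes). With the replicate block Pfkl, Pgk1 and Ldhb were also called lower with p21 (adjusted p = 0.0299, 0.00609 and 0.00312), and with p16 Pgam1 was called higher (0.0237) and Tpi1 and Ldhb lower (0.0207 and 0.00854).

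The regulators of the pathway went in both directions with p21. Pdk1, the kinase that shuts pyruvate out of the mitochondrial oxidation step, stood at 63.2, 66.8 and 75.1 CPM in the control libraries, 53.5, 45.3 and 61.2 CPM with p21 and 60.1, 61.3 and 71.8 CPM with p16. The p21 libraries were below the control libraries but p21 replicate 3 reached into the p16 range. Its log2 fold change with p21 was -0.36 ± 0.102 (adjusted p = 0.0144), lost without control replicate 3 or p21 replicate 2 (up to 0.0549). Pfkfb3, which makes the activator of phosphofructokinase, rose with p21 (0.23 ± 0.058, adjusted p = 0.00814). With p16 it passed only under the block (adjusted p = 0.0842 without it and 0.0143 with it) or without p16 replicate 1. Its sister Pfkfb4 did not pass in either comparison.

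Of the 4 mitochondrial HIF targets, Ndufa4l2 alone passed with p21 (25% lower, against 20.1% of all genes), and it is a member that chose the set. Bnip3, a receptor for mitophagy, had a log2 fold change of -0.20 ± 0.107 with p21 (adjusted p = 0.151) and Higd1a, a factor of respiratory chain assembly, one of -0.16 ± 0.062 (adjusted p = 0.0562). Bnip3l, the relative of Bnip3, did not pass either. With the replicate block Bnip3 and Higd1a were called lower (adjusted p = 0.000659 and 0.00376), where 24.2% of all genes were called lower. With p16 none of the 4 passed, with or without the block.

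The other HIF targets were also split. P4ha1 (chr10:59323296-59373304, plus strand), a subunit of the collagen prolyl hydroxylase, stood at 433, 446 and 461 CPM in the control libraries, 517, 488 and 545 CPM with p21 and 526, 548 and 562 CPM with p16. Every p21 and p16 library was above every control library, with log2 0.21 ± 0.043 (adjusted p = 0.00184) and 0.29 ± 0.043 (adjusted p = 0.00145). P4ha1 and Slc16a1 were the only members whose p16 calls held without any single library. Ankrd37, a small HIF-induced ankyrin protein, stood at 4.64, 6.23 and 4.93 CPM in the control libraries, 7.46, 6.42 and 4.80 CPM with p21 and 9.52, 9.19 and 6.58 CPM with p16. It rose 1.60-fold with p16 (log2 0.68 ± 0.178, adjusted p = 0.0286), the largest rise of the set, and did not pass with p21 (0.24 ± 0.181, adjusted p = 0.315). That call was lost without control replicate 1 or 3 or when p16 replicate 1 or 2 was left out (up to 0.114), and 26.4% of its exon bases overlap a gene on the opposite strand.

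Kdm3a, a histone demethylase, and Mxi1, an antagonist of Myc, passed narrowly with p21, at 0.12 ± 0.045 (adjusted p = 0.0463) and -0.16 ± 0.059 (adjusted p = 0.0454). Kdm3a lost its call in 7 and Mxi1 in 8 of the 9 fits without 1 library (up to 0.175 and 0.141). P4ha2 and the vasodilator peptide Adm did not pass in either comparison. With the replicate block Adm was called higher with p21 (log2 0.25 in the fit without the block, adjusted p = 7.39e-06 with it) and P4ha2 higher with p16 (0.16, adjusted p = 0.000688).

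Scaling by library totals alone in place of TMM gave 5 higher and 14 lower with p21, so that 26.3% rather than 37.5% of the called members were higher, and 6 higher and 2 lower with p16 (75.0% rather than 85.7%). Over all genes the same change of scaling gave 2173 higher and 3734 lower with p21, against 2816 and 2865. With p16 it gave 617 genes higher and 1235 lower, against 825 and 791. The number of members called higher with p16 fell to 1 (2.5%) without control replicate 1 and to 2 (5.0%) without control replicate 2 or p16 replicate 2. Without p16 replicate 1 it was 3 (7.5%). In these fits the share of all genes called higher with p16 also fell, from 5.80% to 3.03%, 3.29%, 2.80% and 3.75% in that order. The other p16 calls at risk were Hk1, lost without control replicate 1 or 2 or p16 replicate 1 (up to 0.0657), and Pfkm, lost without any one control library, p16 replicate 2 or p16 replicate 3 (up to 0.0817).

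Many members were higher in replicate 3 than in replicates 1 and 2 of their own group, a pattern noticed after the values were seen. In all 3 groups at once this held for 17 of the 40 members (42.5%), against 9.77% of all tested genes. They are Hif1a, Egln1, Egln3, Pfkl, Pfkm, Pfkp, Tpi1, Pgk1, Ldhb, Pfkfb3, Pdk1, Bnip3, Higd1a, Ndrg1, P4ha1, P4ha2 and Kdm3a. Members lowest in replicate 3 of all 3 groups were Slc2a3 and Adm, 5.0% against 9.29% of all genes. The ratio of replicate 3 to the mean of the other libraries was 1.19, 1.27 and 1.18 for Bnip3, 1.16, 1.24 and 1.18 for Pdk1 and 1.18, 1.18 and 1.19 for Egln3 in the control, p21 and p16 groups. For Slc2a3 it was 0.78, 0.67 and 0.65. Ndufa4l2 had the largest ratio in the control and p16 groups, 1.59 and 1.60, and 1.09 with p21. The same libraries carried Xist, and what sets them apart was not tested. From replicates 1 and 2 alone, 6 members were higher (15%) and 13 lower (32.5%) with p21, against 18.9% and 19.6% of all genes. With p16, 7 members were higher (17.5%) and 1 lower (2.5%), against 5.59% and 4.98%.

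**Figure D4:**
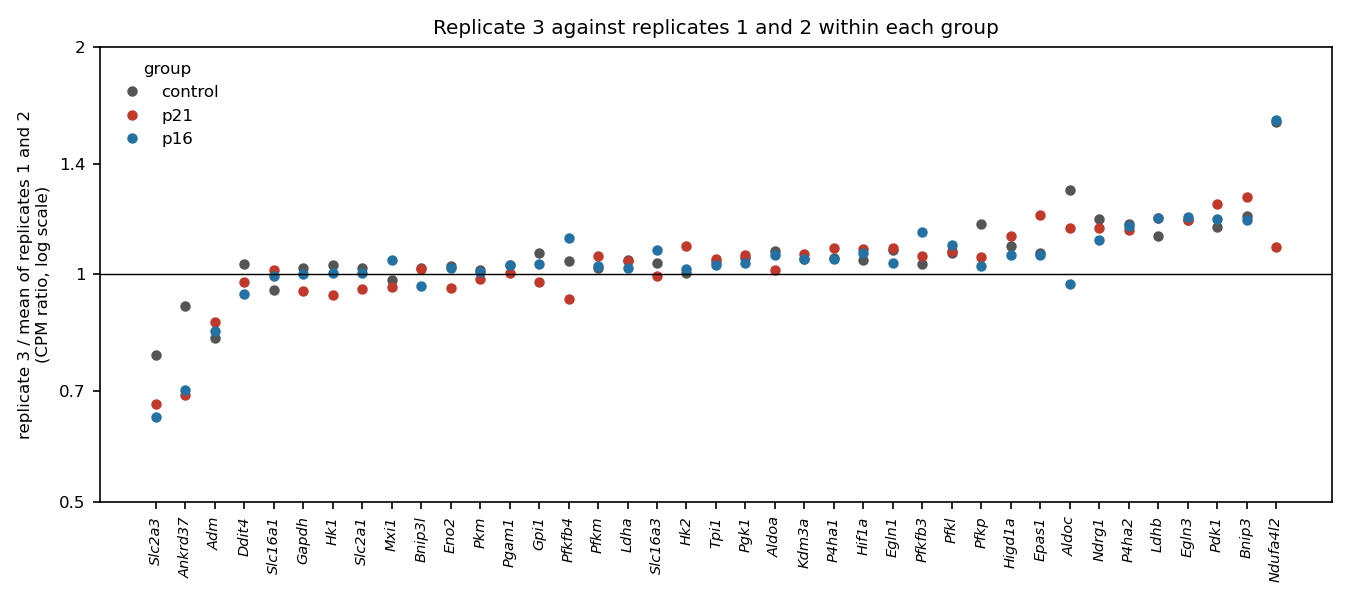
Ratio of replicate 3 to the mean of replicates 1 and 2 of the same group (CPM ratio, log scale) for 39 members, without Eno1, with control in grey, p21 in red and p16 in blue. Ndufa4l2 is highest in the control and p16 groups at 1.59 and 1.60, and Slc2a3 lowest, at 0.78, 0.67 and 0.65.

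Genes of the same pathways outside the set were counted from 3 lists. Of 15 tested genes of oxygen sensing and HIF partners, 5 were higher (33.3%, against 19.8% of all genes) and 3 lower (20%, against 20.1%) with p21, and 1 was higher with p16 (6.67%, against 5.80%), with median log2 fold changes of 0.05 and 0.01, against 0.00 for all tested genes in both comparisons. Cited2, a HIF-induced protein that competes with HIF for its coactivators, rose from 119 ± 4.99 to 147 ± 11.3 CPM in the p21 group (log2 0.31 ± 0.058, adjusted p = 0.0012) and to 140 ± 8.06 CPM in the p16 group (0.23 ± 0.058, adjusted p = 0.0232, above 0.05 when any control library, p16 replicate 1 or p16 replicate 2 was left out). Crebbp, one of those coactivators, fell with p21 from 48.7 ± 1.43 to 42.4 ± 1.54 CPM (-0.20 ± 0.052, adjusted p = 0.00817). Os9 and Tceb2 rose with p21 by 0.18 ± 0.043 and 0.15 ± 0.040 on the log2 scale (adjusted p = 0.00628 and 0.0104). Without control replicate 1 or p21 replicate 1 the Tceb2 rise did not pass. The count of 5 fell to 2 without p21 replicate 1 or with library totals, and to 3 without any of the control libraries, p21 replicate 3, p16 replicate 1 or p16 replicate 2. No gene of this list was lower with p16 by edgeR or DESeq2, and 1 had an unadjusted p under 0.05.

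Of 34 other HIF-inducible genes, 12 were higher (35.3%, against 19.8% of all genes) and 5 lower (14.7%, against 20.1%) with p21. With p16, 7 were higher (20.6%, against 5.80%) and 1 lower (2.94%, against 5.56%). The 5 fell to 3 without control replicate 3 or p21 replicate 2. The 1 lower with p16, Sap30, passed in only 1 of the 9 fits without 1 library, that without p21 replicate 3. With the block these counts were 16 higher and 8 lower with p21, where 24.0% and 24.2% of all genes were called. With p16 they were 11 and 1, where 11.3% and 10.1% of all genes were called. The median log2 fold changes of the list were 0.07 and 0.08. Loxl2, a collagen crosslinking enzyme, rose with both (0.42 ± 0.057 and 0.35 ± 0.057, adjusted p = 0.0001 and 0.00264). Igfbp3, which binds insulin-like growth factors, rose with p21 from 7.20 ± 0.677 to 11.4 ± 0.464 CPM (0.66 ± 0.087, adjusted p = 8.64e-05). Angptl4, an inhibitor of lipoprotein lipase, rose from 17.3 ± 1.78 to 30.0 ± 2.68 CPM with p16 (0.80 ± 0.107, adjusted p = 0.000892). Against these rises, Stc2, a secreted glycoprotein, fell with p21 from 19.9 ± 0.732 to 13.2 ± 1.07 CPM (-0.59 ± 0.067, adjusted p = 2.41e-05) and stood at 19.96 ± 0.759 CPM with p16, where it did not pass. HIF-inducible genes were thus called in both directions with p21, inside and outside the set.

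Of 33 tested genes of glycolysis and pyruvate handling outside the set (42 listed), 9 were higher (27.3%, against 19.8% of all genes) and 2 lower (6.06%, against 20.1%, and 1 without control replicate 2) with p21. With p16, 3 were higher (9.09%, against 5.80%), with medians of 0.12 and 0.03. With the block 6 were higher with p16, where 11.3% of all genes were. None was lower with p16 by edgeR or DESeq2, and 1 had an unadjusted p under 0.05. Pdk4, a relative of Pdk1 that fasting and lipid signals induce, rose from 21.01 ± 0.242 to 38.7 ± 1.58 CPM in the p21 group (log2 0.88 ± 0.052, adjusted p = 1.46e-07) and to 30.9 ± 1.89 CPM in the p16 group (0.56 ± 0.052, adjusted p = 0.000122), while Pdk1 fell with p21. Bsg, the chaperone that brings the lactate transporters to the membrane, rose from 626 ± 22.0 to 758 ± 34.5 CPM with p21 (0.28 ± 0.040, adjusted p = 0.000177), opposite to Slc16a1 and Slc16a3. Its rise with p16 was 0.14 ± 0.040 (adjusted p = 0.0492), and it was lost without any one control library, p21 replicate 1, p16 replicate 2 or p16 replicate 3 (up to 0.171). Eno3 and Pgam2, muscle forms of enolase and phosphoglycerate mutase, rose with p21 by 0.67 ± 0.039 and 0.99 ± 0.171 (adjusted p = 1.19e-07 and 0.000644), and Eno3 also with p16 (0.27 ± 0.039, adjusted p = 0.00129). The summed muscle markers given above rose with them, and their part was not tested.

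The other cell type markers are given as sums per library. Summed leukocyte markers ran from 24.5 to 37.4 CPM in the control, 40.4 to 54.8 CPM in the p21 and 31.7 to 55.1 CPM in the p16 libraries, with 6 of 11 higher with p21 (54.5%, against 19.8% of all genes). That count fell to 2 without p21 replicate 1 or 3 and to 3 without control replicate 1 or 2. Endothelial markers summed to 7.08 to 7.33 CPM in the control, 8.45 to 10.5 CPM in the p21 and 5.88 to 8.42 CPM in the p16 libraries, and Cldn5 was at most 0.03 CPM. Of this list Erg was lower with p21 and p16 (log2 -1.61 ± 0.272 and -0.97 ± 0.256, adjusted p = 0.000538 and 0.0305), the latter lost without any one control or p16 library. Epithelial markers summed to 13.6 to 16.6, 17.1 to 18.5 and 14.7 to 15.6 CPM, with Esrp1 at 0 in every library, and Krt18 and Cldn4 were higher with p21 (0.21 ± 0.065 and 0.95 ± 0.251, adjusted p = 0.0200 and 0.00971). One or both of these calls were lost without control replicate 1, control replicate 3 or p21 replicate 1. Ndufa4l2 is also known as a transcript of pericytes, whose markers summed to 383 to 427, 392.2 to 425 and 371 to 435 CPM. Most of each sum was Cspg4 and Mcam, at 143 to 193 and 177 to 235 CPM over all libraries. Kcnj8 and Abcc9 were at most 1.84 and 3.55 CPM, and Higd1b was 0 in every library. With p21 Rgs5 and Mcam were higher (0.24 ± 0.085 and 0.23 ± 0.069, adjusted p = 0.0397 and 0.0186) and Cox4i2 was lower (-0.65 ± 0.241, adjusted p = 0.0490). Each of these 3 calls was lost without some single library, among them control replicate 2 and p21 replicate 3. The part of other cell types in the results was not tested.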

How the data were processed

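RNA-seq of 9 libraries was deposited by the authors as 1 table of raw counts, with a row per gene symbol. Per the submitters' processing notes, the tools were TopHat2 2.0.14, Bowtie2 2.2.6 and featureCounts 1.4.6 (Subread), and the build was mm10. Which annotation and strand setting were used is not given in the sources used here, and the library kit does not mark strand.

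The counts were analysed with edgeR 4.0.16 (R 4.3.3). The filter was filterByExpr by group, with a count minimum of 10 and a total minimum of 15, followed by TMM scaling. One quasi-likelihood model by group, without a block, took in every library and left 6 residual degrees of freedom. p21 and p16 were each compared with the control group by the two-sided F test, adjusted by Benjamini-Hochberg over 14223 genes, and called under 0.05. The SE of a log2 fold change is its absolute value over the root of F. The biological coefficient of variation came to 7.30%. Library totals ran from 44455730 to 63152239 counts.

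Members and lists were chosen with earlier results of these data known. Named genes are the 4 that chose the set, Hif1a, Epas1, Egln1 and Egln3, the 8 members with the smallest adjusted p with p21 and the 5 with p16, and up to 4 and 3 genes per other list. A gene that this rule names is not reported here. Values of Pdk1 and Ankrd37 in every library were added after they were seen. Alternatives were DESeq2 size factors, library totals, the Wald test (DESeq2 1.42.0), no filter, the replicate number as a block, only the 2 groups compared, replicates 1 and 2 alone and each library left out.

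No label explains the replicate numbers. With group means removed, same-numbered libraries correlated at r = 0.126 to 0.361 and all others at -0.246 to 0.106. The numbers thus pair the samples, most clearly number 3, at 0.332 to 0.361, against 0.126 to 0.202 for numbers 1 and 2. The main fit leaves this pairing out, and member calls that the block changes are given with the results. Lengths, positions and overlaps come from GENCODE M21, in which 22708 of 24062 symbols and 39 members matched 1 gene. Promoters come from RefSeq (GRCm38.p6). Figures were drawn in Python 3.11.15 (pandas 2.3.3, matplotlib 3.10.9).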

Additional observations from a re-analysis of the deposited data

How the results depend on the processing

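Counts of members and of all genes called with p21 stayed within 1.5 times of their main values in every alternative run, unlike some list counts given with the results: 5 to 6 members higher and 7 to 13 lower without any 1 library, and 2254 to 2805 genes higher and 2363 to 2854 lower. Counts with p16 moved more. With the replicate block, members called were 11 higher and 3 lower, and genes called were 1602 higher and 1442 lower, against 825 and 791. With library totals 2 members and 1235 genes were lower with p16. Without 1 library, the members called with p16 ran from 1 to 7 higher and 1 to 2 lower, and the genes from 404 to 955 higher and 355 to 939 lower. Members lower with p21 than with p16 by estimate ran from 29 to 31. Fewer samples enter these fits, and the cause of the other moves was not tested.

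For Epas1 with p21 the log2 value was -0.000142 from replicates 1 and 2 alone and ran from -0.0378 to 0.139 without 1 library. For Hif1a with p16 it was -0.0261 with library totals, -0.00592 from replicates 1 and 2 alone and -0.0273 to 0.0239 without 1 library. For Ndufa4l2 with p16 it ran from -0.374 to 0.137 without 1 library. For Ndrg1 with p16 it was 0.0272 from replicates 1 and 2 alone and -0.0733 to 0.0757 without 1 library. Over all 40 members, 13 had a sign that reversed in some alternative with p21 and 13 with p16, none of them called. The replicate block changed no call of a member beyond those given with the results. Depth limits Eno1 and Aldoc most, with as few as 4 and 75 reads in a library. Ndufa4l2 held as few as 156 reads in a p21 library, and Ankrd37, Eno2 and Epas1 as few as 231, 232 and 283.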
